A study of Mus musculus with 39 samples.

Results

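The genes described here encode enzymes that build cholesterol, listed by symbol as Hmgcs1, Mvd, Idi1, Fdft1, Sqle, Lss, Cyp51 and Dhcr7. They were chosen by name, although earlier results of these data were known at the time. Probes were assigned through the RefSeq accession printed for each spot on an Agilent one-colour mouse array. Of the 8 genes, 7 had at least 1 probe (13 probes in all, among 41174 probes and 16535 named genes on the array), whereas no probe was assigned to Idi1, which was therefore not analysed here. The 39 arrays formed 7 groups, all of strain (B6xDBA/2)F1 and without any transgene or deletion. OC was the unfertilized metaphase II oocyte (7 arrays), which also served as the recipient of the donor nuclei. IVF embryos (6 arrays) were produced by in vitro fertilization. TSA(-) embryos (8 arrays) were clones made by somatic cell nuclear transfer (SCNT) from cumulus cells without further treatment, and TSA(+) embryos (6 arrays) were such clones kept in 5 nM trichostatin A, a histone deacetylase inhibitor, for the first 8 h after activation. Spi-C 1.0 and Spi-C 0.1 embryos (4 arrays each) were clones that had received mRNA for the ETS-family transcription factor Spi-C at the pronuclear stage, at 1.0 or 0.1 mg/ml. All embryos were collected as 2-cell embryos after 24 h in KSOM medium. The Cumulus group (4 arrays) held the donor cell type itself, the somatic cells that surround the ovulated oocyte. Each array was hybridized with RNA pooled from 10 oocytes or embryos or from 500 cumulus cells, so that fewer RNA molecules per cell and a changed mixture of cells could not be told apart.

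Cholesterol is made from acetyl-CoA by way of mevalonate. Hmgcs1 encodes the cytosolic synthase that forms HMG-CoA on the way to mevalonate. Mvd decarboxylates mevalonate diphosphate to the first isoprene unit, which Idi1 isomerizes. Fdft1 is squalene synthase, the first enzyme committed to sterols, Sqle epoxidizes squalene, and Lss closes the rings to give lanosterol. Cyp51 removes the 14-alpha-methyl group of lanosterol and Dhcr7 performs a final reduction to cholesterol. In most cells these genes are regulated together: when sterols are scarce, Scap escorts the transcription factor encoded by Srebf2 away from the Insig proteins to the proteases that activate it. In the ovarian follicle of the mouse, cumulus cells are known to supply the oocyte with products of this pathway.

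Values are log2 of the processed spot signal minus the 75th percentile of the same array, so that 0 is the level of the upper-quartile probe. A difference was called at an adjusted p below 0.01 in limma, with adjustment over all 39517 probes tested, and all 13 probes of the 7 genes were among those tested. Where arrays of a gene are said not to overlap between groups, the share of all probes without overlap was not counted, so this is a description only. The share of probes well above background was 48.6% to 59.8% on OC arrays and 58.2% to 65.7% on Cumulus arrays, against 66.8% to 77.5% on the embryo arrays, and the 75th percentile signal was 271 to 512 units on OC arrays and at least 792 on every other array. OC, IVF, TSA(-) and TSA(+) arrays shared slides, although TSA(-) and TSA(+) met on only 1 slide, with 1 array each. The Cumulus and Spi-C arrays were on slides of their own, read with another scanner and software version. For Cumulus against every other group and for Spi-C against TSA(-), the slide and the group thus cannot be told apart. The labelled cell types were checked against markers: the summed level of 8 oocyte markers was 11.3 to 12.0 on OC arrays and -0.03 to 0.96 on Cumulus arrays (log2), with 6 of the 8 not well above background on any Cumulus array, and the summed level of 9 cumulus cell markers was 7.83 to 7.97 on Cumulus arrays and at most 3.53 elsewhere, although Cd44 was not well above background on any Cumulus array. The summed level of 5 markers of the 2-cell stage was 7.23 to 7.68 on IVF, 5.37 to 6.77 on TSA(-) and 3.52 to 4.08 on Cumulus arrays. On OC arrays it was 4.81 to 5.43, which overlapped TSA(-) and Spi-C 0.1 (5.17 to 6.07), so these markers did not fully separate clones from oocytes. That of 5 markers of theca, endothelial, blood and stromal cells was 1.84 to 2.03 on Cumulus arrays and at most 1.14 elsewhere. The part of these cells in the results was not tested.

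The sequences upstream of the genes are shown as a description, Hmgcs1 having stood apart from the other members in the levels described next. A link between the letters and the levels was not tested. Each is the 150 bases before the annotated start (RefSeq, GRCm38.p6), 5′ to 3′ on the strand of the gene, with capitals marking matches on either strand to the sterol regulatory element TCACNCCAC, the CCAAT box and the GC box GGGCGG.
Hmgcs1, chr13:119690201-119690350, plus strand: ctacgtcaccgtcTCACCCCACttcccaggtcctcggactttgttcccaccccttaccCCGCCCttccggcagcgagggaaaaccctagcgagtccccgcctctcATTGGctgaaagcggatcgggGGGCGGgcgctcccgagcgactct
Mvd, chr8:122443423-122443572, minus strand: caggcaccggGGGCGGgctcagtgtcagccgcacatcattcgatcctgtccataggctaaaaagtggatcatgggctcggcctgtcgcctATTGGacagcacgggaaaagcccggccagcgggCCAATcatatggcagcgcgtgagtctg
Lss, chr10:76531455-76531604, plus strand: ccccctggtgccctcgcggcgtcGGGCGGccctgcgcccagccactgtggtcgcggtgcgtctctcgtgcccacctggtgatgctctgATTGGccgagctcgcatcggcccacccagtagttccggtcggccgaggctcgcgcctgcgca
Cyp51, chr5:4104698-4104847, minus strand: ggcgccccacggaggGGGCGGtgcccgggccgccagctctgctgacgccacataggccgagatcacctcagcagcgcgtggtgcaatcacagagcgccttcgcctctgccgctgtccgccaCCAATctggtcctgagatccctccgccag
Windows of 250 bases before to 50 after the start were listed for 6 of the 8 genes, Fdft1 and Sqle being the other two. Within them the sterol regulatory element letters were found only for Hmgcs1, as TCACCCCAC at 137 bases before the start, and the element's letters TCACNCCAC occurred for 1.44% of the 27025 genes with a window. Other forms of the element were not searched, so the other members may hold such forms. The CCAAT box was found in at least 1 window of each of the 6 genes, against 41.1% of all genes with a window, and the GC box likewise for all 6, against 38.2% of genes. Dhcr7 had 3 windows, of which 1 held a CCAAT box.

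The first comparison asked how the RNA of these enzymes differed between the unfertilized oocyte and the fertilized 2-cell embryo, which has begun to transcribe its own genome. Of the 7 measured enzymes, 6 were higher in IVF embryos, by 2.58-fold for Sqle to 18.1-fold for Lss, and only Hmgcs1 was lower, by 7.85-fold. Over all probes tested, 23.8% were called higher and 43.2% lower, and the median difference was -0.88. The median of the 7 members was 2.72.

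Hmgcs1, the synthase at the entry of the pathway, was measured on 6 OC arrays, the spot on the other being an outlier, and its lowest, median and highest levels were 8.74, 9.36 and 9.62. On IVF arrays they were 6.03, 6.36 and 6.58. The lowest oocyte array thus lay above the highest IVF array, and the difference was -2.97 (SE 0.137, adjusted p = 7.82e-20). Mvd ranged from -4.46 to -3.11 in OC (median -4.34) and from -1.44 to -0.82 in IVF (median -1.19), again with no overlap but in the other direction, and was 7.05-fold higher in the embryo (log2 difference 2.82, SE 0.186, adjusted p = 7.99e-16).

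Among the enzymes from squalene to lanosterol, Fdft1 lay between 0.22 and 0.92 in OC (median 0.52) and between 3.92 and 4.55 in IVF (median 4.25). This was the difference with the smallest adjusted p of the 7 (12.8-fold, log2 difference 3.68, SE 0.15, adjusted p = 1.02e-21). Sqle rose least: it was 3.91, 4.35 and 4.48 (lowest, median, highest) in OC and 5.25, 5.71 and 5.90 in IVF (1.37, SE 0.141, adjusted p = 1.01e-10). Lss rose most and was the least precise, since it was well above background on only 3 of the 7 OC arrays, where it ranged from -7.32 to -2.98 (median -4.35). In IVF, Lss lay between -1.29 and -0.13 (4.18, SE 0.405, adjusted p = 2.24e-11). For each of these genes all IVF arrays were above all OC arrays.

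Both late enzymes were also higher. Cyp51, the lanosterol demethylase, had levels from -3.61 to -1.58 in OC (median -2.04) and from -1.04 to -0.36 in IVF (median -0.59), a 3.08-fold difference (1.62, SE 0.232, adjusted p = 1.23e-07). Dhcr7 moved from 0.26 to 1.33 in OC (median 1.17) up to 3.39 to 4.21 in IVF (median 3.77), a 6.60-fold difference (2.72, SE 0.176, adjusted p = 4.55e-16). Neither gene showed overlap between the groups. On the 2 slides that carried both groups, all 7 members differed in the same direction as over all slides, with Hmgcs1 at -3.00 and -2.71. Since the median of all probes shifted under other scalings (to -0.29 with quantile normalization and -1.55 with centring on the array median), the differences relative to that median are also given: they ran from -2.10 for Hmgcs1 to 5.05 for Lss. None of the 7 lost its call or its direction under any of these scalings. The size of the Hmgcs1 difference depended on the processing, however, and ran from -3.66 to -0.73 over all settings tried.

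**Figure D1:**
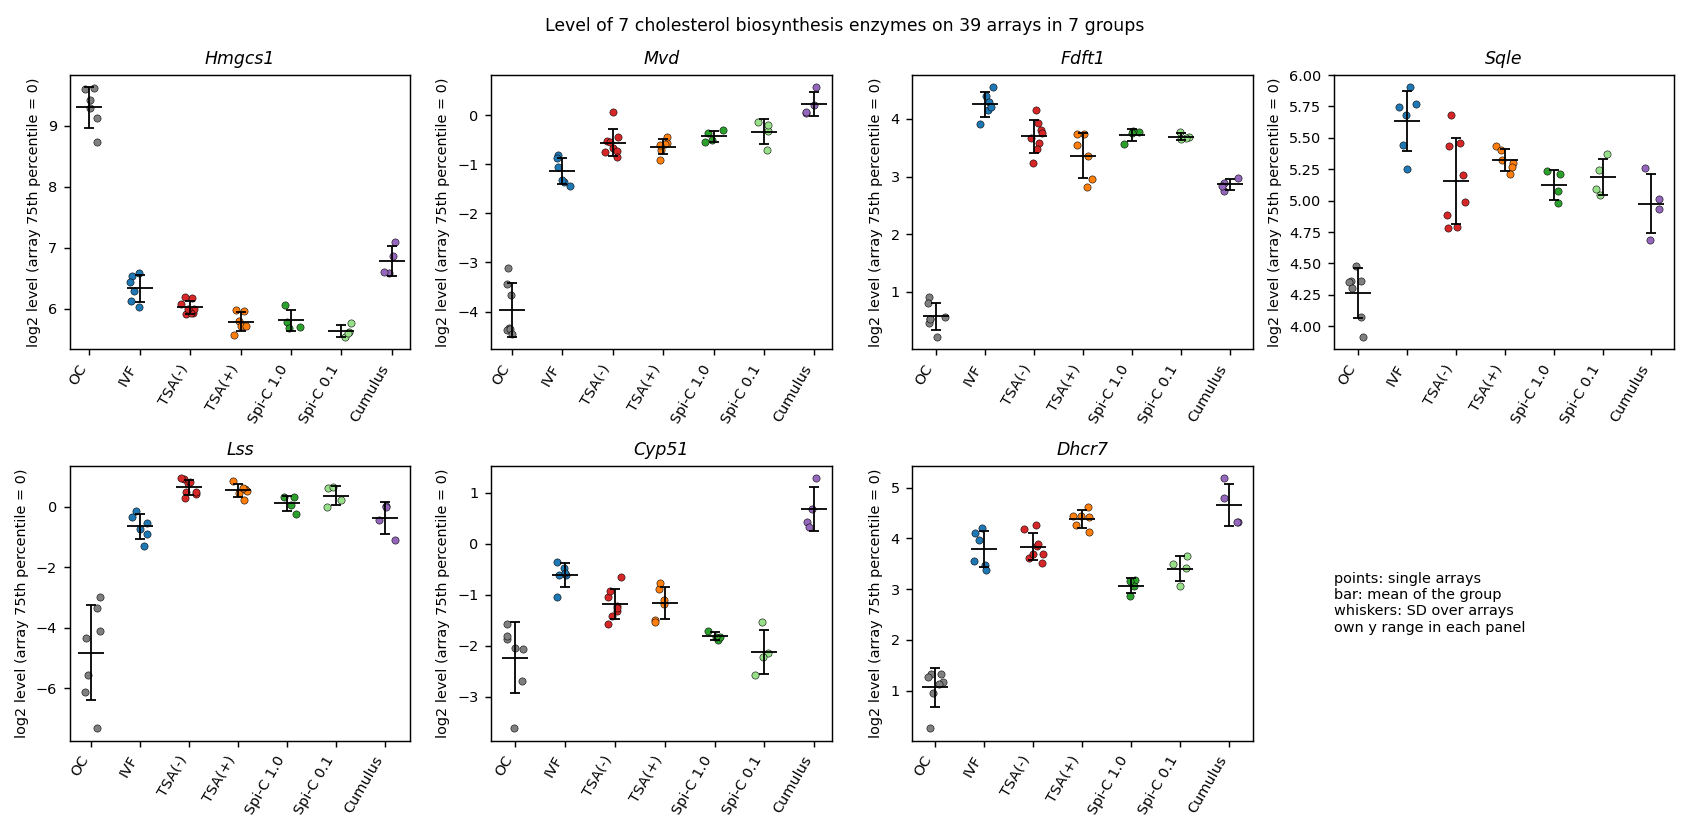
Level of the 7 measured enzymes on each of 39 arrays, by group (points, arrays; y axis, log2 signal relative to the array's 75th percentile; bars, group mean and SD). Hmgcs1 is highest in OC, where its 6 arrays lie between 8.74 and 9.62, whereas every other enzyme has its lowest mean in OC.

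Cumulus cells, the donors of the cloned nuclei, were set against the oocyte next. Here too 6 members were called higher and Hmgcs1 was called lower, against 23.8% of all probes called higher and 44.7% lower. With the probe that stands for each gene, no member overlapped between the groups, for which the share of all probes was not counted. The OC arrays are those of the preceding comparison. Hmgcs1 was 6.58, 6.60, 7.10 and 6.86 on the 4 Cumulus arrays and 5.74-fold lower than in OC (-2.52, SE 0.154, adjusted p = 1.03e-16). Lss was 0.03, -0.45, -1.10 and 0.00 in Cumulus and 21.9-fold higher than in OC (4.45, SE 0.456), where it was well above background on only 3 of 7 arrays. The second Lss probe was higher by 1.46 (2.74-fold), with overlapping arrays. Mvd was 0.21, 0.57, 0.05 and 0.06, and 18.2-fold higher (4.19, SE 0.209). For Mvd and the first Lss probe, all 4 arrays exceeded the highest OC array, by more than their own spread. Dhcr7 was 12.1-fold higher (4.33, 4.80, 5.18 and 4.32 on the Cumulus arrays), Cyp51 7.51-fold (0.68, 1.28, 0.42 and 0.32), and Fdft1 4.90-fold (2.75, 2.90, 2.83 and 2.98). Sqle showed the smallest difference, 1.64-fold (0.71, SE 0.159, adjusted p = 0.000152), with 4.69, 4.94, 5.26 and 5.01 in Cumulus. These differences kept their direction and call under the other scalings. The size of the Hmgcs1 difference again depended on the processing, from -2.56 to -0.52 over all settings tried.

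The other enzymes of the pathway did not all move with the 6 members that rose. Of 13 other enzymes, 7 were higher, 4 lower and 2 not called in IVF against OC, with a median of 1.30 (all probes, 23.8% higher and 43.2% lower). The 4 that fell, in the direction of Hmgcs1, were the sterol reductase Lbr (-3.97, adjusted p = 1.32e-19) and, named after their values were seen, the methyl oxidase Msmo1 (-3.43), the reductase Hsd17b7 (-3.37) and the desaturase Sc5d (-3.35). Ggps1, which makes geranylgeranyl diphosphate on a side branch, was higher by 7.75 but well above background on only 3 of 7 OC arrays, and Mvk, mevalonate kinase, was well above background on no OC array and at least 15.1-fold higher in IVF. In Cumulus against OC, 8 were higher, 4 lower and 1 not called (median 1.74), with 23.8% of all probes higher and 44.7% lower. Tm7sf2, a second sterol C14 reductase, was higher by 7.11, farnesyl diphosphate synthase Fdps by 6.80 and Ggps1 by 6.78.

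Regulators and transport genes were counted in the same way. Of all probes, 23.8% were higher and 43.2% lower in IVF against OC (median -0.88). In Cumulus against OC the shares were 23.8% and 44.7% (median -1.15). Falls from OC were thus common over the whole array. Of 9 sterol regulators, 2 were higher, 5 lower and 2 not called in IVF against OC (median -1.24). Srebf2, the transcription factor that activates the pathway, fell by 4.58 (adjusted p = 1.11e-13), Scap fell by 3.36 and the protease gene Mbtps2 was higher by 3.86. In Cumulus against OC, 4 were higher, 4 lower and 1 not called (median -0.11): Insig1 was lower by 4.96, Srebf1 and Insig2 were higher by 3.92 and 3.73, and Srebf2 was not called (1.53 in OC, 1.41 in Cumulus). Of 12 genes of cholesterol uptake, export and storage, 4 were higher and 7 lower in IVF (median -1.90), led by the lysosomal cholesterol exporter Npc1 (-5.05), the esterifying enzyme Soat1 (-3.44) and the efflux transporter Abcg1 (-2.96). In Cumulus, 8 were higher and 2 lower (median 1.04). The lipoprotein receptor Vldlr was higher there by 6.44, the efflux transporter Abca1 by 10.64 although only 2 of 7 OC arrays were well above background for it, and Abcg1 fell by 5.90.

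**Figure D2:**
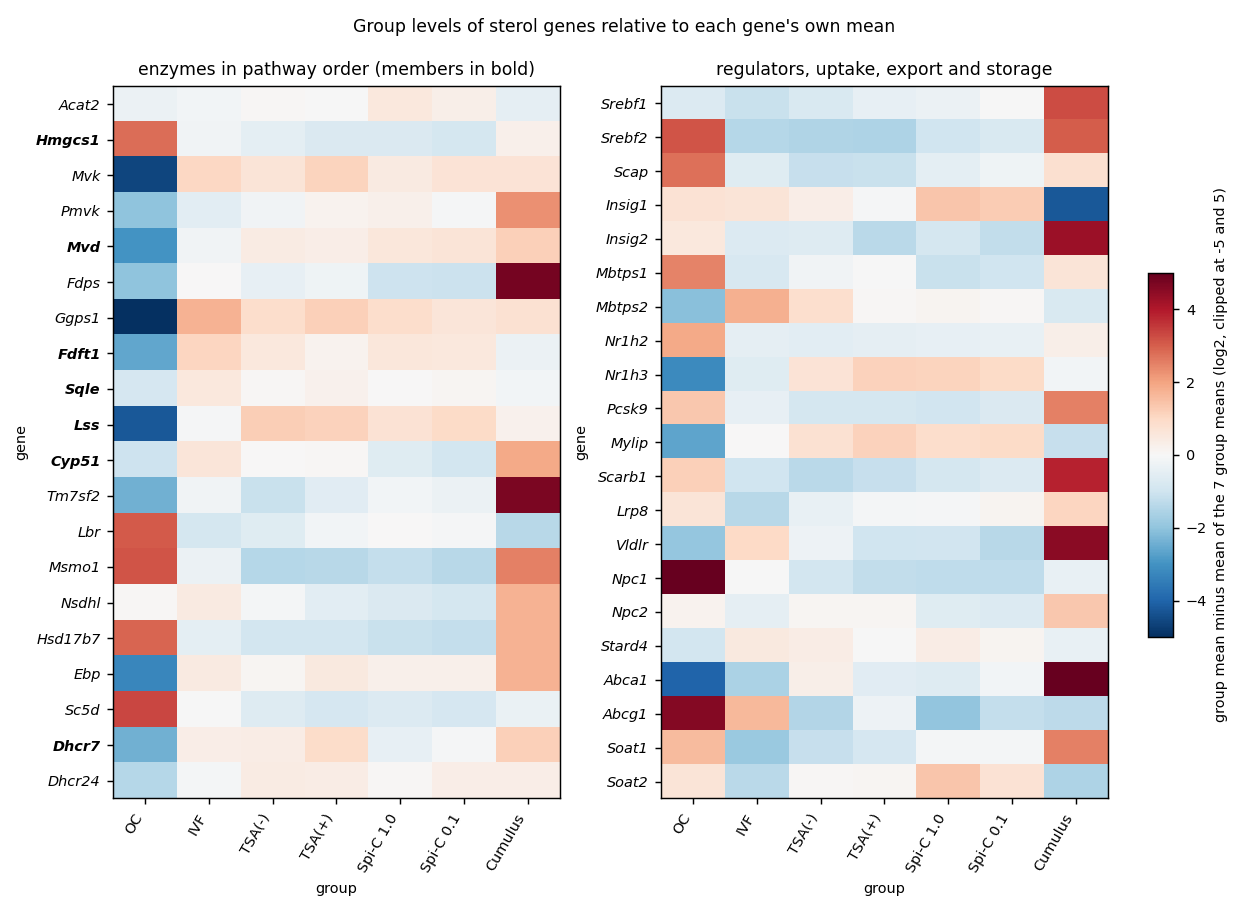
Group means of the members, the other enzymes, the regulators and the transport genes, each shown as the log2 difference from the gene's own mean of the 7 groups (columns, groups; colour clipped at -5 and 5). Hmgcs1, Lbr, Msmo1, Hsd17b7 and Sc5d have their highest mean in OC, whereas Mvd, Fdft1, Sqle, Lss, Cyp51 and Dhcr7 have their lowest there.

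Clones were then set against fertilized embryos of the same stage. In TSA(-) clones 2 of 7 members were lower than in IVF and none was higher, with 9.35% of all probes called higher and 11.4% lower. The members moved by at most 1.30 on the log2 scale here, against 4.18 between oocyte and embryo. Fdft1 ranged from 3.23 to 4.15 in TSA(-) (median 3.71) and from 3.92 to 4.55 in IVF. It was 1.47-fold lower in the clones with overlapping arrays (-0.56, SE 0.146, adjusted p = 0.00332). Sqle ranged from 4.78 to 5.68 (median 5.10) against 5.25 to 5.90, also with overlap, and was 1.40-fold lower (-0.48, SE 0.137, adjusted p = 0.00676). Both calls were lost with the slide as a fixed block (Fdft1 -0.52, adjusted p = 0.0746; Sqle -0.37, adjusted p = 0.150) and with quantile normalization (adjusted p = 0.0120 and 0.0221), and the mean of both Fdft1 probes was at -0.018. The call for Fdft1 was also lost without IVF replicate 5 (adjusted p = 0.0138), and that for Sqle without any one of 8 arrays, namely IVF replicates 3 to 6 and TSA(-) replicates 1 to 4 (adjusted p up to 0.0247), so that the count of lower members ranged from 0 to 2.

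Lss was the only member whose arrays did not overlap. It lay between 0.30 and 0.94 in TSA(-) (median 0.64) and between -1.29 and -0.13 in IVF, so that all 8 clone arrays were above all 6 IVF arrays. The difference of 1.30 nevertheless missed the threshold (2.46-fold, SE 0.393, adjusted p = 0.0107; 0.0104 to 0.0317 with an array left out), while it passed with normexp background correction (1.31, adjusted p = 3.67e-05). It also passed with only the groups compared in the fit (adjusted p = 0.000106), with the filter on probes well above background, with slide as a random block and with the mean of its probes. It did not pass with quantile normalization, with centring on the array median, or with slide or scan day as a fixed block. The second Lss probe was at 0.62 with overlapping arrays and was not called (adjusted p = 0.091). The main fit shares its estimate of the spread over all 7 groups, and the SD of Lss was 1.57 in OC, 0.42 in IVF and 0.25 in TSA(-). The Lss difference was 1.35 to 1.73 on the 3 slides that carried both groups. Mvd was at 0.59 (adjusted p = 0.0115), and passed without IVF replicate 4 (0.00877) or without TSA(-) replicate 8 (0.00907). Cyp51 was at -0.57 (0.0548; -1.36 and called with the mean of its probes, adjusted p = 0.000358), Hmgcs1 at -0.31 (0.0701) and Dhcr7 at 0.05 (95% interval -0.30 to 0.40), none of them called.

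Of the other enzymes 3 of 13 were lower in TSA(-) than in IVF and none was higher (median -0.44, all probes -0.05). Over all probes 11.4% were called lower and 9.35% higher. The 3 enzymes were Msmo1, lower by 1.15 (adjusted p = 7.78e-07), Sc5d by 0.62 and Fdps by 0.44, the last call lost without any one of 10 arrays. Among the regulators Nr1h3, which encodes the oxysterol receptor LXR-alpha, was higher by 1.29, the SREBP proteases Mbtps1 and Mbtps2 were at 0.59 and -0.94, and the 3 calls were lost with slide as a fixed block. Of the 12 transport genes 2 were lower, Abcg1 by 3.11 (adjusted p = 4.57e-09) and Npc1 by 0.89, the latter lost without any one of 7 arrays.

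TSA(+) clones were compared with the same 6 IVF arrays, so the values of both comparisons are side by side and not independent. Again 2 of 7 members were lower and none higher (all probes, 8.74% higher and 12.5% lower). Fdft1 ranged from 2.82 to 3.74 (median 3.46) and was below every IVF array, a 1.86-fold difference (-0.89, SE 0.156, adjusted p = 2.84e-05). Hmgcs1 ranged from 5.56 to 5.98 (median 5.76), likewise below every IVF array, and was 1.46-fold lower (-0.54, SE 0.137, adjusted p = 0.0024). Lss was above every IVF array at 0.22 to 0.85 (median 0.56), but its difference of 1.20 was not called (adjusted p = 0.0272). It was called with only the groups compared in the fit (adjusted p = 0.000589) and with normexp correction (adjusted p = 0.0003). The second Lss probe was at 0.66 and was not called (adjusted p = 0.0888). The Hmgcs1 call was lost with quantile normalization (-0.36, adjusted p = 0.0118), with centring on the array median (-0.33, adjusted p = 0.0755) and with the mean of its probes (-0.68, adjusted p = 0.265), and the Fdft1 call with the mean of its probes (-0.53, adjusted p = 0.0334). The second Hmgcs1 probe taken alone was also called lower, with overlapping arrays (-0.82, adjusted p = 0.00394). On OC replicate 3 the mean of the Hmgcs1 probes held the second probe only (0.39), the first being an outlier spot. The spread in that fit is shared by all 7 groups. Dhcr7 was at 0.60 (adjusted p = 0.0114), Mvd at 0.51 (0.0417), Cyp51 at -0.55 (0.0787; -1.11 and called with the mean of its probes, 0.00574) and Sqle at -0.31 (0.107). Without IVF replicate 3 or 4, or without TSA(+) replicate 2, Dhcr7 was called higher (adjusted p = 0.00569 to 0.00975). Of the other enzymes 3 were lower, Msmo1 (-1.08), Nsdhl (-0.95, lost with centring on the array median) and Sc5d (-0.84), and Lbr was higher (0.75, lost without any one of 3 arrays). The regulators showed Nr1h3 at 1.78, Mbtps2 at -1.71 and Mbtps1 at 0.76, and Abcg1, Npc1 and Soat1 were at -1.90, -1.21 and 1.05, all called.

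Whether trichostatin A changed the enzymes in clones was asked directly by comparing TSA(+) with TSA(-). No member was called, nor any of the 13 other enzymes, 9 regulators and 12 transport genes, while 0.086% of all probes were called higher and 0.213% lower in limma (7012 of 39517 probes had an unadjusted p below 0.05). The largest member difference was that of Dhcr7, which ranged from 4.12 to 4.61 in TSA(+) (median 4.43) and from 3.52 to 4.26 in TSA(-) (median 3.78), overlapping in the range. Its difference was 0.54 (SE 0.171, 95% interval 0.20 to 0.89, adjusted p = 0.0754). Fdft1 was at -0.34 (-0.63 to -0.04, adjusted p = 0.21) and Hmgcs1 at -0.24 (-0.50 to 0.02). The intervals of the remaining members were -0.45 to 0.28 for Mvd, -0.11 to 0.45 for Sqle, -0.90 to 0.70 for Lss and -0.44 to 0.47 for Cyp51, and differences within them are compatible with the fit over all 7 groups. Its spread is shared by the groups, and the SD of Lss was 1.57 in OC, against 0.21 in TSA(+) and 0.25 in TSA(-). The Lss interval is thus not a measure of the spread in these clones alone. Only 1 slide carried both groups, with 1 array of each, so they were compared mostly across slides. On that slide Fdft1 was at 0.50, Hmgcs1 at 0.07 and Lss at 0.15, opposite in direction to the fit over all arrays. The other members kept their direction there.

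**Figure D3:**
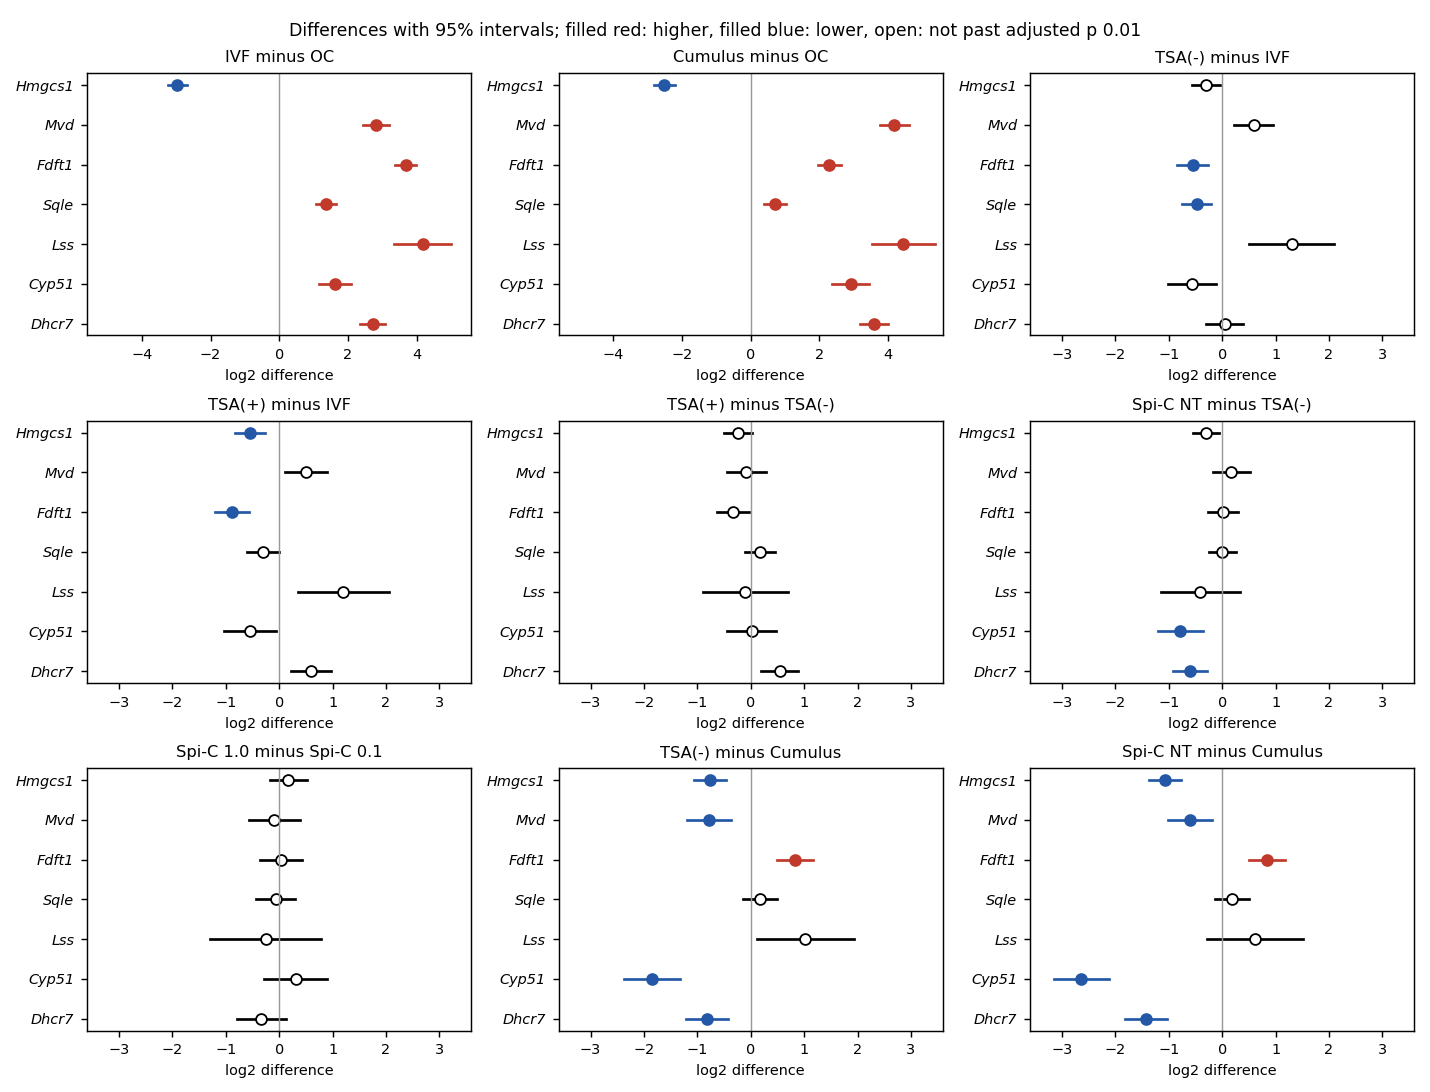
Log2 difference of each member in the study's comparisons with its 95% interval (filled, past an adjusted p of 0.01; open, not past it). Differences against OC reach 4.45, whereas those among the 2-cell embryo groups stay within 1.30; the value for Fdft1 against Cumulus changes sign when arrays are centred on their median.

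Clones injected with Spi-C mRNA were compared with the untreated TSA(-) clones, taking the 8 arrays of both doses together. Cyp51 and Dhcr7 were lower and no member was higher (all probes, 9.22% higher and 6.47% lower). Cyp51 was -1.71, -1.88, -1.83 and -1.82 at 1.0 mg/ml and -2.13, -1.53, -2.57 and -2.22 at 0.1 mg/ml, against -1.57 to -0.65 in TSA(-). One array of the lower dose entered the TSA(-) range and the other 7 lay below it (1.72-fold, -0.79, SE 0.208, adjusted p = 0.00471). Dhcr7 was 3.17, 2.86, 3.07 and 3.17 at 1.0 mg/ml, all below the lowest TSA(-) array at 3.52, and 3.41, 3.49, 3.06 and 3.65 at 0.1 mg/ml, where 1 array overlapped (1.52-fold, -0.60, SE 0.158, adjusted p = 0.00424). The calls were sensitive to single arrays, being lost for Cyp51 without TSA(-) replicate 6 or 7 or Spi-C 0.1 replicate 3 (adjusted p up to 0.0148) and for Dhcr7 without TSA(-) replicate 2 or 8, Spi-C 1.0 replicate 2 or Spi-C 0.1 replicate 3 (up to 0.0135), so that the count of lower members ranged from 0 to 2. With the mean of a gene's probes Cyp51 was at -0.022 (adjusted p = 0.96) and Dhcr7 at -0.41 (0.244), neither called. Hmgcs1 was at -0.31 (adjusted p = 0.0565; -0.48 and called with centring on the array median, 0.00295), Lss at -0.41 (0.45), and Mvd, Fdft1 and Sqle were between 0.00 and 0.17.

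Of the other enzymes Fdps (-0.65, adjusted p = 8.96e-05) and Nsdhl (-0.68, lost without any one of 11 arrays) were lower in the Spi-C clones and none was higher. Of the 9 regulators 3 were higher and 1 lower, and of the 12 transport genes 2 were higher and 1 lower. Over all probes 9.22% were higher and 6.47% lower. Insig1, which retains Scap in the endoplasmic reticulum when sterols are plentiful, was higher by 1.00, Scap by 0.80 and Soat1 by 1.06, whereas Mbtps1 was lower by 0.87. Between the doses, which were balanced over the same 2 slides, no member was called (all adjusted p = 0.999991; all probes, 0.00506% higher and 0% lower in limma, with 1294 probes at an unadjusted p below 0.05). The widest intervals for a dose difference, 1.0 minus 0.1, were those of Lss at -1.30 to 0.79 and Cyp51 at -0.29 to 0.90, and the narrowest that of Hmgcs1 at -0.17 to 0.51. They too rest on the spread shared by all 7 groups, and the SD of Lss was 0.26 at 1.0 mg/ml and 0.31 at 0.1 mg/ml, against 1.57 in OC.

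Clones were finally compared with the donor cells, to see how far the enzyme levels had left those of the Cumulus group. In TSA(-) 4 members were lower and 1 higher than in Cumulus, with 25% of all probes called lower and 31.1% higher. Cyp51 was 3.61-fold lower (-1.85, SE 0.255, adjusted p = 6.66e-08), Hmgcs1 was lower by 0.76, Dhcr7 by 0.82 and Mvd by 0.78, although Hmgcs1 was at 0.76 in the other direction with the mean of its probes (adjusted p = 0.173) and Dhcr7 was not called with the mean of its probes (-0.65, adjusted p = 0.0661). That Hmgcs1 mean held only the second probe on OC replicate 3, and this probe alone was called higher (2.27, adjusted p = 1.04e-10). With the probe that stands for each gene, no TSA(-) array reached the lowest Cumulus array for Cyp51, Hmgcs1 or Dhcr7. Mvd overlapped at 1 TSA(-) array and its call was lost without Cumulus replicate 2 (adjusted p = 0.0107). Fdft1 was higher in TSA(-) by 0.83 (1.78-fold, adjusted p = 3.63e-05), but with arrays centred on their median this difference was -0.035. Sqle (0.18, 95% interval -0.14 to 0.49) and Lss (1.02, adjusted p = 0.0444) were not called. All TSA(-) arrays nevertheless lay above all Cumulus arrays for Lss. It was called with only the groups compared in the fit (adjusted p = 0.0017) and with normexp correction (0.00153), and ran from 0.16 to 1.04 over all settings tried. The second Lss probe was at 0.71 with overlapping arrays and was not called (adjusted p = 0.0494). For Sqle the scaling decided the call and its direction, since it was called lower with centring on the array median (-0.69, adjusted p = 0.00107) and higher with quantile normalization (0.44, adjusted p = 0.00224) and normexp correction (0.49, adjusted p = 0.000219).

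The same 5 members were called against the same 4 Cumulus arrays in the Spi-C clones, 4 lower and 1 higher (all probes, 23.3% lower and 33.7% higher). Cyp51 was 6.22-fold lower (-2.64, adjusted p = 2.32e-11), Dhcr7 2.68-fold (-1.42, adjusted p = 5.12e-08) and Hmgcs1 2.09-fold (-1.07, adjusted p = 6.82e-08; 0.52 with the mean of its probes), each without overlap. Mvd was lower by 0.61 (adjusted p = 0.00954), a call lost on leaving out 10 of the 12 arrays in turn (adjusted p up to 0.0579). Fdft1 was higher by 0.85 (adjusted p = 2.87e-05), and at -0.20 with centring on the median. Sqle, at 0.18 and not called, was again called lower with centring on the median (-0.86) and higher with quantile normalization (0.62). Other enzymes were lower than in Cumulus in 7 of 13 cases and higher in 2 for both kinds of clone, with medians of -1.64 and -1.49. Tm7sf2, Fdps and Msmo1 led in TSA(-) (-5.85, -5.20 and -3.98) and in Spi-C (-4.95, -5.85 and -3.82). Srebf2 was lower than in Cumulus by 4.53 in TSA(-) and by 3.92 in Spi-C, Insig2 by 4.92 and 5.33, and Insig1 was higher by 4.56 and 5.56. Abca1 was lower by 6.32 and 7.01 and Vldlr by 4.77 and 5.67.

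Ranking the 7 groups for each gene gave 42 neighbouring pairs, of which 7 differed at an adjusted p below 0.01, 1 for each gene. OC stood at the top for Hmgcs1 and was separated there from Cumulus, while the 5 embryo groups from IVF (6.33) to Spi-C 0.1 (5.63) formed a series in which no neighbours differed. Over all probes, OC differed from the other groups at 67.1% (IVF), 71.1% (TSA(-)), 72.3% (TSA(+)), 60.1% (Spi-C 1.0), 59.7% (Spi-C 0.1) and 68.5% (Cumulus) of probes. Cumulus differed from IVF, TSA(-), TSA(+), Spi-C 1.0 and Spi-C 0.1 at 56.3%, 56.1%, 54.7%, 53.5% and 52.8%. Among the embryo groups the share was 20.7%, 21.2%, 23.9% and 23.5% for IVF against TSA(-), TSA(+), Spi-C 1.0 and Spi-C 0.1, 10% and 9.61% for TSA(-) against the Spi-C groups in the same order, 15.3% and 13.1% for TSA(+) against them, 0.299% between TSA(-) and TSA(+) and 0.00506% between the doses. For the other 6 genes OC came last. The step above OC was the one that differed for Mvd and Lss (IVF above OC), Fdft1 and Sqle (Cumulus above OC) and Dhcr7 (Spi-C 1.0 above OC), whereas for Cyp51 it was the step from Cumulus at the top to IVF. Cumulus held the first place for Mvd, Cyp51 and Dhcr7, IVF for Fdft1 and Sqle, and TSA(-) for Lss, in each case with the next group not separated from it except for Cyp51.

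Several genes had more than 1 probe, and these did not always give the same picture. The second Hmgcs1 probe (A_52_P388072) was also lower in IVF and Cumulus than in OC (-1.27 and -3.87), but it was higher in TSA(-) and Spi-C than in Cumulus (2.27 and 2.11), opposite to the first probe (-0.76 and -1.07). The second Lss probe was higher in IVF than in OC by 1.54, and the second Fdft1 probe by 0.99 although only 2 of 7 OC arrays were well above background for it. For Fdft1 in TSA(-) against IVF that probe was at 0.52 and not called, where the first was at -0.56. One further Cyp51 probe (A_52_P164161) was called lower than IVF in both kinds of clone (TSA(-) -2.84, adjusted p = 6.27e-05; TSA(+) -1.93, adjusted p = 0.00774), with a mean of -3.77 ± 1.66 in TSA(-) (SD, n = 8), and its difference from Cumulus was -5.75. The other Cyp51 probe was at -0.69 in TSA(-) against IVF and not called. The second Dhcr7 probe was well above background on no OC array and at least 2.23-fold higher in IVF and 3.40-fold in Cumulus. Over the 39 arrays, the correlation of each further probe with the first was 0.56 for Hmgcs1, 0.60 for Fdft1, 0.87 for Lss, 0.88 and 0.63 for Cyp51, and 0.77 for Dhcr7, a description over arrays that share groups and slides.

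**Figure D4:**
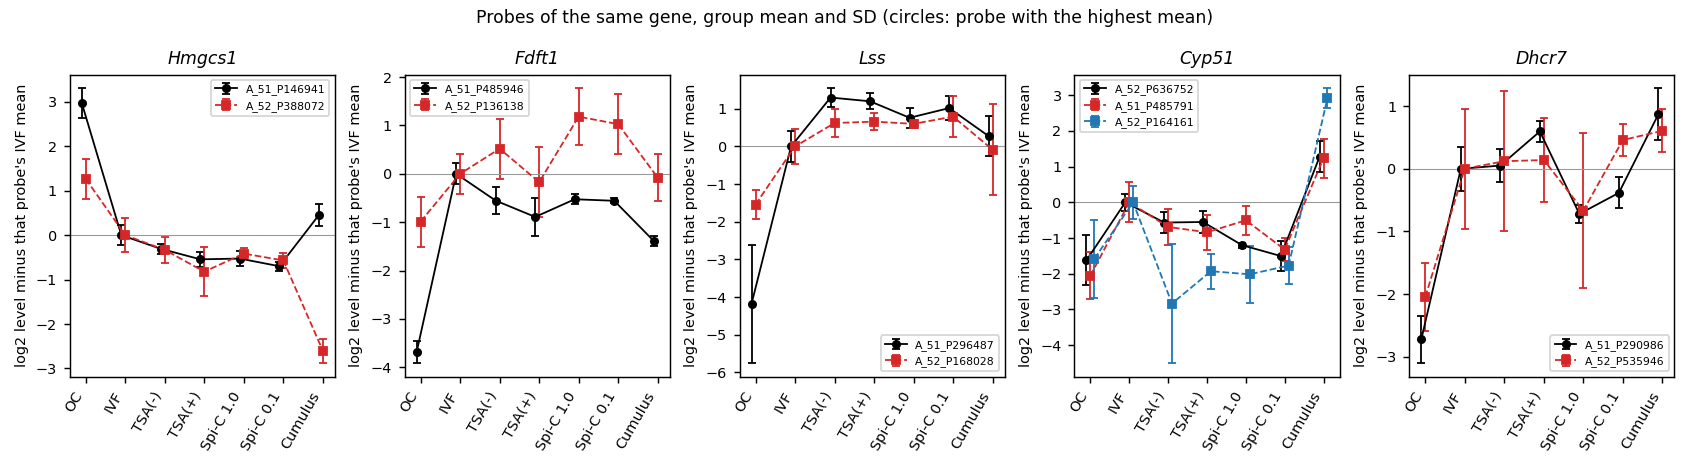
Group mean and SD of each probe of the 5 genes with several probes, relative to that probe's own mean in IVF (y axis, log2; circles, the probe used in the text). The Hmgcs1 probes part in Cumulus, where one is near its IVF level and the other lies below, and the Cyp51 probes part in the clones.

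The members were also described by how they varied together over the 39 arrays. For the 21 pairs of members the median Pearson correlation was 0.65 over all arrays, with Hmgcs1 at -0.91 against the mean of the others. After the group means were subtracted the median was -0.02 (-0.54 to 0.49), with 6 of the 21 pairs above 0.3. Mvd and Lss, the pair with the highest correlation over all arrays (0.91), were at 0.49 within groups, and Mvd and Dhcr7 were at 0.90 and 0.44. The genes whose profile was most like the mean profile of the members, among 22890 probes compared, were Rilpl2, Selenos, Cd63, Lrpap1 and Rabep2 (r of 0.971 to 0.975 over 39 arrays), all lowest in OC.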

How the data were processed

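Gene expression was measured on Agilent one-colour whole-genome mouse arrays (39 arrays, 1 for each pool of 10 oocytes or embryos or 500 cumulus cells; females of 8 to 10 weeks gave oocytes and cumulus cells). The authors labelled total RNA with Cy3 after linear amplification (2 rounds), and the deposited scanner files hold one intensity per spot (gProcessedSignal, background-subtracted by Agilent Feature Extraction; version 9.5.3.1 is named in the submitters' processing notes, and files of the Spi-C and Cumulus arrays name a later version). The deposited table of processed values holds log2 values made by the authors in GeneSpring, scaled to each array's 75th percentile and centred on each probe's median; it was used as an alternative.

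Here log2 intensity was taken minus the array's 75th percentile, outlier spots and control spots were left out, and probes of at least 10 units on at least 1 IVF or SCNT array were fitted with limma 3.58.1 (R 4.3.3) over all 7 groups, with Benjamini-Hochberg adjustment. Of 41174 probes, 23374 had a symbol through RefSeq. A gene was represented by its probe with the highest mean over all arrays. Intervals are 95%. Named genes were the members plus, in each further list, the called genes with the 3 largest differences. Some listed genes are not reported here and were left out of the counts. The members and lists were chosen with earlier results of these data known. The labels give separate biological replicates, so p-values measure the spread between pools, and the number of arrays limits the precision. Same-numbered arrays did not deviate together (97 pairs, median r -0.0019, 1 above 0.1), so replicate numbers were not used for pairing. Scripts were tested on simulated data. Alternatives covered scaling, background correction, filters, slide, scan day and replicate blocks, other probes, thresholds, and leaving out each array.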

Additional observations from a re-analysis of the deposited data

Results flagged for a closer look

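In 3 of 49 combinations of member and group, 1 array stood apart from its group by Dixon's criterion, which flags about 1 in 20 groups by chance. For Mvd, TSA(-) replicate 2 was at 0.0578 on the log2 scale, the next array at -0.443, and the gap took 0.547 of the range of the 8 arrays (critical value 0.526). For Fdft1, Spi-C 1.0 replicate 3 was at 3.57, with the next of 4 arrays at 3.76 (0.842 of the range, critical value 0.829). For Dhcr7, OC replicate 2 was at 0.263, with the next of 7 arrays at 0.956 (0.648 of the range, critical value 0.568). Leaving out these arrays in turn changed no call of Mvd in TSA(-) against IVF, of Fdft1 in Spi-C against TSA(-) or of Dhcr7 in IVF against OC.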

How the results depend on the processing

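For single members, 813 of 882 values under other settings and 731 of 784 with an array left out kept their direction and their side of the threshold. Of the called differences, 381 of 407 did so under other settings (22 lost the call and 4 reversed) and 345 of 372 with an array left out (27 lost it, none reversed). Reversals came mostly with centring on each array's median: Mvd 0.11 and Lss 0.091 in TSA(+) against TSA(-), Mvd -0.0029, Fdft1 -0.16 and Sqle -0.17 in Spi-C against TSA(-), Fdft1 -0.037 between the Spi-C doses, Fdft1 -0.035 and Sqle -0.69 in TSA(-) against Cumulus, and Fdft1 -0.20, Sqle -0.86 and Lss -0.43 in Spi-C against Cumulus. Cyp51 in TSA(+) against TSA(-) was -0.12 with slide as a fixed block and -0.19 with scan day. Averaging the probes of a gene turned Hmgcs1 to 0.76 in TSA(-) and 0.52 in Spi-C against Cumulus. The replicate block gave Dhcr7 -0.024 in TSA(-) against IVF and Lss 0.11 in TSA(+) against TSA(-), took the members lower in Spi-C than in TSA(-) from 2 to 1 (Dhcr7 at -0.51, adjusted p = 0.0431), and moved no other count of members by over 1.5 times; no sample was paired by its number. The count of members lower in TSA(-) than in IVF (2) became 0 with quantile normalization, with only the groups compared in the fit and with slide as a fixed block, and 1 with median centring, with the 2 experiments fitted apart and with scan day as a block. The count higher there (0) became 2 with normexp correction, with the filter on probes well above background and with an adjusted p below 0.05, and 1 with only the groups compared, with slide as a random block and with the mean of probes. In TSA(+) against IVF the count higher (0) became 3 with normexp and with an adjusted p below 0.05, 2 with median centring, and 1 with quantile normalization, the filter on probes well above background or only the groups compared, and the count lower (2) became 1 with quantile normalization, median centring or the mean of probes. Against Cumulus, the count higher in TSA(-) (1) became 0 with median centring, 3 with normexp, and 2 with quantile normalization, only the groups compared or an adjusted p below 0.05, and the count lower (4) became 2 with the mean of probes. The count higher in Spi-C (1) became 0 with median centring and 2 with quantile normalization or normexp. Members lower in Spi-C than in TSA(-) became 0 with the mean of probes. Neighbours that differed in the order of groups (7) became 13 with median centring, 11 with normexp and 12 with an adjusted p below 0.05. Without one array, counts ranged from 0 to 2 for members lower in Spi-C than in TSA(-) and lower in TSA(-) than in IVF, and from 0 to 1 for members higher in TSA(-) or TSA(+) than in IVF, while uncalled differences that changed sign ranged from -0.029 to 0.14 for Dhcr7 in TSA(-) against IVF, from -0.12 to 0.0067 for Mvd and from -0.063 to 0.091 for Cyp51 in TSA(+) against TSA(-), and from -0.054 to 0.077 for Fdft1 and from -0.048 to 0.080 for Sqle in Spi-C against TSA(-). The cause of these changes was not tested. Lss, Mvk and the second probes of Fdft1 and Dhcr7 are limited in OC by signal near background. Of 143 called differences of genes in the other lists, 49 lost their call in at least 1 setting, 11 reversed under a scaling and 23 lost their call without some array.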
